A study of Homo sapiens with 14 samples.

Results

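The histone cluster genes are the genes of the replication-dependent histone clusters, whose products package DNA into nucleosomes. They were taken as every gene whose name begins with HIST1H, HIST2H, HIST3H or HIST4H in both deposited expression tables, with no filter on expression, which gave 106 gene IDs (89 gene symbols) of 63677. By the histone type in the name these were 8 IDs for the linker histone H1, 26 for H2A, 32 for H2B, 22 for H3 and 18 for H4. The pseudogene HIST1H1PS2, counted as H1 by this name, now has the symbol H3P26, that of an H3 pseudogene. It had at most 0.27 FPKM in any library. By the cluster in the name, 69 IDs were HIST1, 32 HIST2, 4 HIST3 and 1 HIST4. A name does not always give the place: in RefSeq, 2 of the 3 IDs named HIST1H4A are annotated on chromosome 1, and the pseudogenes HIST1H2APS6 and HIST1H2BPS3 on chromosome 13. All libraries came from KYSE510, a line of esophageal squamous cell carcinoma, harvested 48 h after small interfering RNAs (siRNAs) were delivered with lipofectamine RNAiMAX. In the EZH2 series, siEZH2-1 and siEZH2-2 are independent siRNAs against EZH2, the histone methyltransferase of Polycomb repressive complex 2, and siNC is their control. In the LAT1 series, siLAT1-2 and siLAT1-3 are independent siRNAs against LAT1, the amino acid transporter encoded by SLC7A5, and this series has its own siNC. Each of the 6 groups has 2 RNA-seq libraries, 12 in all, and the 2 EZH2 CUT&Tag samples of the study were not analysed here. The groups are 1 cell line only, and a knockdown leaves part of its target: EZH2 stood at 40.6% (siEZH2-1) and 36.4% (siEZH2-2) of its siNC level, and SLC7A5 at 20.3% (siLAT1-2) and 26.0% (siLAT1-3). In the EZH2 series SLC7A5 itself stood at 24.9% of siNC with siEZH2-1 and 78.6% with siEZH2-2, so the EZH2 siRNAs also differed in their level of the other target.

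Core histones H2A, H2B, H3 and H4 form the nucleosome, and the linker histone H1 binds the DNA where it enters and leaves. Their clustered genes are switched on together in S phase by NPAT and its partners, and most of their mRNAs end in a stem-loop bound by SLBP in place of a poly(A) tail. Some of the genes also give polyadenylated transcripts, which persist outside S phase, and many of them encode identical or nearly identical proteins, so that reads can match more than 1 copy.

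Levels are in FPKM, fragments or reads per kilobase of gene and scaled to depth, as the authors deposited them. Depth, estimated from how low values are spaced, was 21240000 to 27250000 counted reads or fragments per library for the EZH2 series, and for the LAT1 series it was 12900000 to 16630000. Whether RNA was selected by its poly(A) tail, how reads matching several copies were counted and whether strand was used are not given in the sources used here. The squamous carcinoma markers were expressed, with 12 of 12 averaging 1 FPKM or more in each series. Of 15 fibroblast, immune and endothelial markers, 2 reached that level in each series. The highest of them, COL1A1, averaged 1.23 FPKM (EZH2 series) and 2.00 FPKM (LAT1 series). Small noncoding RNAs without a poly(A) tail (10 listed, among them RN7SK and RN7SL2) summed to 246.4 and 316.4 FPKM in the siEZH2-1 libraries, 222 and 251.6 FPKM in the siEZH2-2 libraries and 322.1 and 384.5 FPKM in the siNC libraries of the EZH2 series. Both siRNA groups lay below siNC there, and 1 of the 5 tested, RN7SL2, was called lower with siEZH2-2 (128 and 151 FPKM, against 203 and 230 FPKM in siNC; log2 difference -0.63 ± 0.14 (SE), limma, adjusted p = 0.0197) and 0 with siEZH2-1. In the LAT1 series they summed to 48.6 and 195.9 FPKM in the siLAT1-2 libraries, 84.1 and 89.5 FPKM in the siLAT1-3 libraries and 66.4 and 130.3 FPKM in the siNC libraries. There the spread was largest within siLAT1-2. The part of these differences in the histone values below was not tested.

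Most histone cluster genes gave few reads or none. Of the 106 IDs, 34 were listed at 0 in all 12 libraries, and 72 were above 0 in at least 1. Counted by symbol, 72 of 89 were above 0 in at least 1 library. The IDs at 0 overstate the number of silent symbols, as 16 symbols had more than 1 ID and 0 symbols had more than 1 ID above 0. Genes were tested in a series if they averaged 1 FPKM or more there, which 23 IDs did in the EZH2 series, 28 in the LAT1 series, 19 in both and 32 in either. The tested genes of the EZH2 series were 3 H1, 5 H2A, 6 H2B, 3 H3 and 6 H4 genes, and those of the LAT1 series 2 H1, 8 H2A, 10 H2B, 3 H3 and 5 H4 genes. A gene near the filter can pass it through the group in which it is high, so counts over the tested genes do not describe the whole family.

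HIST1H2BK, an H2B gene, and HIST1H1C, a linker histone H1 gene, held most of the signal. They made up 65.7% to 70.6% of the summed FPKM of the histone cluster genes of EZH2 series libraries and 65.0% to 75.3% of that of LAT1 series libraries. All histone cluster genes together were 0.0777% to 0.143% of all FPKM (EZH2 series) and 0.179% to 0.235% (LAT1 series). HIST1H2BK, HIST1H1C, HIST1H2AC, HIST1H2BC, HIST1H2BD and HIST2H2BE are among the members known to give polyadenylated transcripts, and all 6 passed the filter in both series.

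The promoters of the 6 genes on which the results below turn are shown so that their elements can be compared. Each stretch runs 130 bases up to the annotated start of transcription, 5′ to 3′ on the gene's own strand, from RefSeq on GRCh38.p14. Capitals mark 4 short elements, searched on either strand. The octamer is ATTTGCAT. The TATA box was searched as TATAAA. The remaining elements are CCAAT, common in promoters of many kinds, and AAACACA, known from linker histone promoters. The stretches lie at chr6:26056471-26056600 (minus strand), chr6:26124042-26124171 (plus), chr6:27132913-27133042 (plus), chr6:26157991-26158120 (plus), chr6:27132796-27132925 (minus) and chr6:27146859-27146988 (minus).
HIST1H1C: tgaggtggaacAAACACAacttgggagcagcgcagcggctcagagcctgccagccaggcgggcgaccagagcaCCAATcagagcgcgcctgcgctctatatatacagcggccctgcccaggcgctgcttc
HIST1H2AC: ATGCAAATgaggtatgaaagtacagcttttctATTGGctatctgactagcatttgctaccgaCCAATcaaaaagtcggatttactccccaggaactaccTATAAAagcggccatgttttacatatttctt
HIST1H2AG: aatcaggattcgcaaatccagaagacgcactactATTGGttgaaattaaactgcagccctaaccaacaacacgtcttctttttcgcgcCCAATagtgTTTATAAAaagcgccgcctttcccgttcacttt
HIST1H2BD: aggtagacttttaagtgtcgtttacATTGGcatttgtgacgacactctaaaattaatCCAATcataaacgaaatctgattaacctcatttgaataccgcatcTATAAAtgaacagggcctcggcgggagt
HIST1H2BJ: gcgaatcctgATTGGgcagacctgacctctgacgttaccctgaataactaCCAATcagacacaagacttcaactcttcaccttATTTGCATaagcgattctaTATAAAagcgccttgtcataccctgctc
HIST1H2BK: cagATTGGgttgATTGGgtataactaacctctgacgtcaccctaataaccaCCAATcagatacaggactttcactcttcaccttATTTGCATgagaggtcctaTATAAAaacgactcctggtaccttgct
Each of the 6 stretches held CCAAT, and all but that of HIST1H1C held TATAAA; in HIST1H2AG the TATA box was read on both strands, which overlap. The octamer stood in the HIST1H2AC, HIST1H2BJ and HIST1H2BK stretches, and AAACACA in that of HIST1H1C. Promoters from 250 bases before to 50 after the start were found for 74 of the 106 IDs (63 symbols, 62 promoters). In these windows the octamer was present in 11 of 16 H2A promoters (68.8%) and 10 of 14 H2B promoters (71.4%). It was present in 1 of 13 H3 promoters and in 0 of 6 H1 and 0 of 13 H4 promoters. The share was 1.80% of all 27305 promoters searched, which left out 1 chromosome. TATAAA was present in 67.7% of the histone promoters (12% of all) and CCAAT in 83.9% (35.7% of all). AAACACA was present in 6 of 6 H1 promoters and in 5.76% of all promoters. HIST1H2AG and HIST1H2BJ start 248 bases apart in opposite directions, and HIST1H2AC and HIST1H2BC 246 bases apart, so each pair shares promoter sequence. Windows of other H2A and H2B pairs overlap as well, among them HIST2H2AC and HIST2H2BE. The same octamer can therefore be counted for both types. HIST1H2AG held the octamer in its window but not in the stretch shown.

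With both EZH2 siRNAs averaged, 9 of the 23 tested histone genes were higher than siNC and 0 lower, by limma on log2(FPKM + 1) at an adjusted p under 0.05. Of all 11585 genes tested, 30.0% were called, 17.0% higher and 13.0% lower. At an unadjusted p under 0.05 the counts were 11 and 0. The share of all genes at an unadjusted p under 0.05 was not computed. The unadjusted counts here and below therefore have no share beside them. The siRNAs contributed unequally. With siEZH2-1 alone, 12 of 23 were higher and 0 lower (15.9% and 11.4% of all genes, 27.2% in all), and with siEZH2-2 alone, 5 of 23 were higher and 0 lower (13.9% and 10.9% of all genes, 24.8% in all), with 15 and 6 higher and 0 lower in each at an unadjusted p under 0.05. The median log2 difference of the tested members was 0.52 with siEZH2-1 (0.03 over all genes) and 0.09 with siEZH2-2 (0.03 over all genes). The siEZH2-2 median was 0.18 without siEZH2-2 replicate 2, 0.16 without siNC replicate 2 and 0.14 without siNC replicate 1. Both contrasts use the same siNC libraries, so they are given side by side and not as separate support. In bulk RNA, a larger share of cells in S phase and more histone RNA per cell cannot be told apart. Among individual members, the siEZH2-1 calls of HIST1H1C, HIST1H2AC, HIST1H2AG, HIST1H2BD, HIST1H2BJ and HIST1H2BK were kept in every alternative tried, and the siEZH2-1 count fell to 7 without siEZH2-1 replicate 2. With siEZH2-2, leaving out either of its own libraries or siNC replicate 1 gave 2 calls, and leaving out siNC replicate 2 gave 3.

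Among the linker histone genes, HIST1H1C had 60.1 and 60.3 FPKM in the siEZH2-1 libraries, 42.9 and 42.1 FPKM in the siEZH2-2 libraries and 33.8 and 36.6 FPKM in the siNC libraries. Both siRNA groups lay above siNC with no overlap, siEZH2-1 highest. The log2 difference from siNC was 0.76 ± 0.06 (SE; limma, adjusted p = 0.000433) with siEZH2-1 and 0.27 ± 0.06 (adjusted p = 0.0167) with siEZH2-2. The siEZH2-2 call ended if either siEZH2-2 library (adjusted p 0.0793 and 0.0536) or siNC replicate 1 (adjusted p = 0.104) was left out. HIST1H1PS1, an H1 pseudogene, had 2.83 and 3.41 FPKM with siEZH2-1, 1.50 and 1.14 FPKM with siEZH2-2 and 1.80 and 1.43 FPKM with siNC, and rose with siEZH2-1 (0.66 ± 0.13, adjusted p = 0.013). These values rest on an estimated 5 to 16 reads per library, and the call ended without siEZH2-1 replicate 2 (adjusted p = 0.0803) or siNC replicate 2 (adjusted p = 0.0575). HIST1H1E, the remaining tested H1 gene, ranged from 1.05 to 2.03 FPKM over the series and was not called in any contrast.

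Of 5 H2A genes tested, 3 rose with siEZH2-1 and 1 with siEZH2-2 (15.9% and 13.9% of all genes were higher). HIST1H2AC had 21.4 and 21.2 FPKM with siEZH2-1, 12.4 and 11.1 FPKM with siEZH2-2 and 9.95 and 10.5 FPKM with siNC. HIST1H2AG had 12.5 and 11.4 FPKM with siEZH2-1, 5.17 and 5.04 FPKM with siEZH2-2 and 4.48 and 4.43 FPKM with siNC. In both genes the siEZH2-1 libraries stood far above the rest, while the siEZH2-2 libraries lay slightly above siNC. With siEZH2-1 the log2 differences were 0.99 ± 0.07 (SE) for HIST1H2AC (adjusted p = 0.000373) and 1.25 ± 0.07 for HIST1H2AG (adjusted p = 0.000232). With siEZH2-2 they were 0.18 ± 0.07 (adjusted p = 0.106) and 0.16 ± 0.07 (adjusted p = 0.141). HIST1H2APS4, an H2A pseudogene, differed in pattern from them: it was called with both siRNAs, at 0.49 ± 0.10 with siEZH2-1 (adjusted p = 0.0155) and 0.41 ± 0.10 with siEZH2-2 (adjusted p = 0.0283), on 2.10 and 2.42 FPKM, 2.00 and 2.15 FPKM, against 1.19 and 1.45 FPKM in siNC. Without siNC replicate 1 neither call stood (adjusted p 0.0926 and 0.153), the siEZH2-1 call also ended without siEZH2-1 replicate 2 (0.097), and the siEZH2-2 call also ended without either siEZH2-2 library (0.0757 and 0.104) or siNC replicate 2 (0.0507).

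The H2B genes held the largest changes. HIST1H2BJ had 16.2 and 17.5 FPKM with siEZH2-1, 8.41 and 7.28 FPKM with siEZH2-2 and 4.21 and 4.96 FPKM with siNC. HIST1H2BD had 13.1 and 14.6 FPKM with siEZH2-1, 8.88 and 8.60 FPKM with siEZH2-2 and 4.09 and 5.19 FPKM with siNC. In both genes the 3 groups were ordered without overlap, siEZH2-1 above siEZH2-2 above siNC. The log2 difference of HIST1H2BJ was 1.68 ± 0.10 (SE) with siEZH2-1 (adjusted p = 0.000243) and 0.66 ± 0.10 with siEZH2-2 (adjusted p = 0.00464). That of HIST1H2BD was 1.40 ± 0.10 with siEZH2-1 (adjusted p = 0.000447) and 0.80 ± 0.10 with siEZH2-2 (adjusted p = 0.00314). These 2 H2B genes were the only ones of the 5 siEZH2-2 calls that stood in every alternative tried. HIST1H2BK, the most abundant histone cluster gene, had 189.9 and 208 FPKM with siEZH2-1, 107 and 96.1 FPKM with siEZH2-2 and 108 and 115 FPKM with siNC. Its siEZH2-1 libraries were high and its siEZH2-2 libraries lay below siNC, with differences of 0.83 ± 0.08 (adjusted p = 0.000912) and -0.13 ± 0.08 (adjusted p = 0.258). HIST1H2BC, which shares promoter sequence with HIST1H2AC, had 4.20 and 3.82 FPKM with siEZH2-1, 2.60 and 2.86 FPKM with siEZH2-2 and 2.87 and 2.16 FPKM with siNC. It was called with siEZH2-1 (0.52 ± 0.12, adjusted p = 0.020), a call that ended without either siEZH2-1 library (adjusted p 0.0831 and 0.0662) and without siNC replicate 2 (0.0714). HIST2H2BE (0.50 ± 0.16, adjusted p = 0.0589) and HIST1H2BH (0.42 ± 0.21, adjusted p = 0.185) were not called with siEZH2-1.

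Of 3 H3 genes tested, 2 were called with siEZH2-1 and 0 with siEZH2-2 (0 at an unadjusted p under 0.05). Of all genes, 27.2% were called with siEZH2-1 and 24.8% with siEZH2-2. HIST1H3G had 4.61 and 5.62 FPKM with siEZH2-1, 2.57 and 3.71 FPKM with siEZH2-2 and 2.39 and 2.34 FPKM with siNC. HIST1H3H had 4.94 and 4.75 FPKM with siEZH2-1, 2.13 and 1.98 FPKM with siEZH2-2 and 1.83 and 2.93 FPKM with siNC. The siEZH2-1 libraries lay above all others in both. The siEZH2-1 differences were 0.86 ± 0.15 (SE; adjusted p = 0.00812) for HIST1H3G and 0.81 ± 0.15 (adjusted p = 0.0111) for HIST1H3H, and both calls ended without siEZH2-1 replicate 2 (adjusted p 0.0506 and 0.0521). H4 genes, which encode the same protein, had a median difference of 0.35 with siEZH2-1 and 0.01 with siEZH2-2, the lowest of the 5 types with each siRNA. Of the 6 tested, 1 was called with each siRNA (16.7%, below the shares of all genes), and not the same one. HIST1H4I had 1.82 and 1.92 FPKM with siEZH2-1, 0.84 and 1.29 FPKM with siEZH2-2 and 0.98 and 1.13 FPKM with siNC (siEZH2-1 difference 0.48 ± 0.13, adjusted p = 0.0336). HIST1H4A had 1.08 and 1.89 FPKM with siEZH2-1, 2.08 and 1.64 FPKM with siEZH2-2 and 0.67 and 1.02 FPKM with siNC (siEZH2-2 difference 0.63 ± 0.18, adjusted p = 0.0484). HIST1H4A rests on an estimated 6 to 20 reads per library. Its siNC mean was 0.845 FPKM, below the filter of 1 FPKM, which it passed through the siRNA groups. Its siEZH2-2 call ended when any library of siEZH2-2 or siNC was left out (adjusted p 0.0658 to 0.203), and so did the siEZH2-1 call of HIST1H4I for siEZH2-1 and siNC (adjusted p 0.0747 to 0.156).

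**Figure D1:**
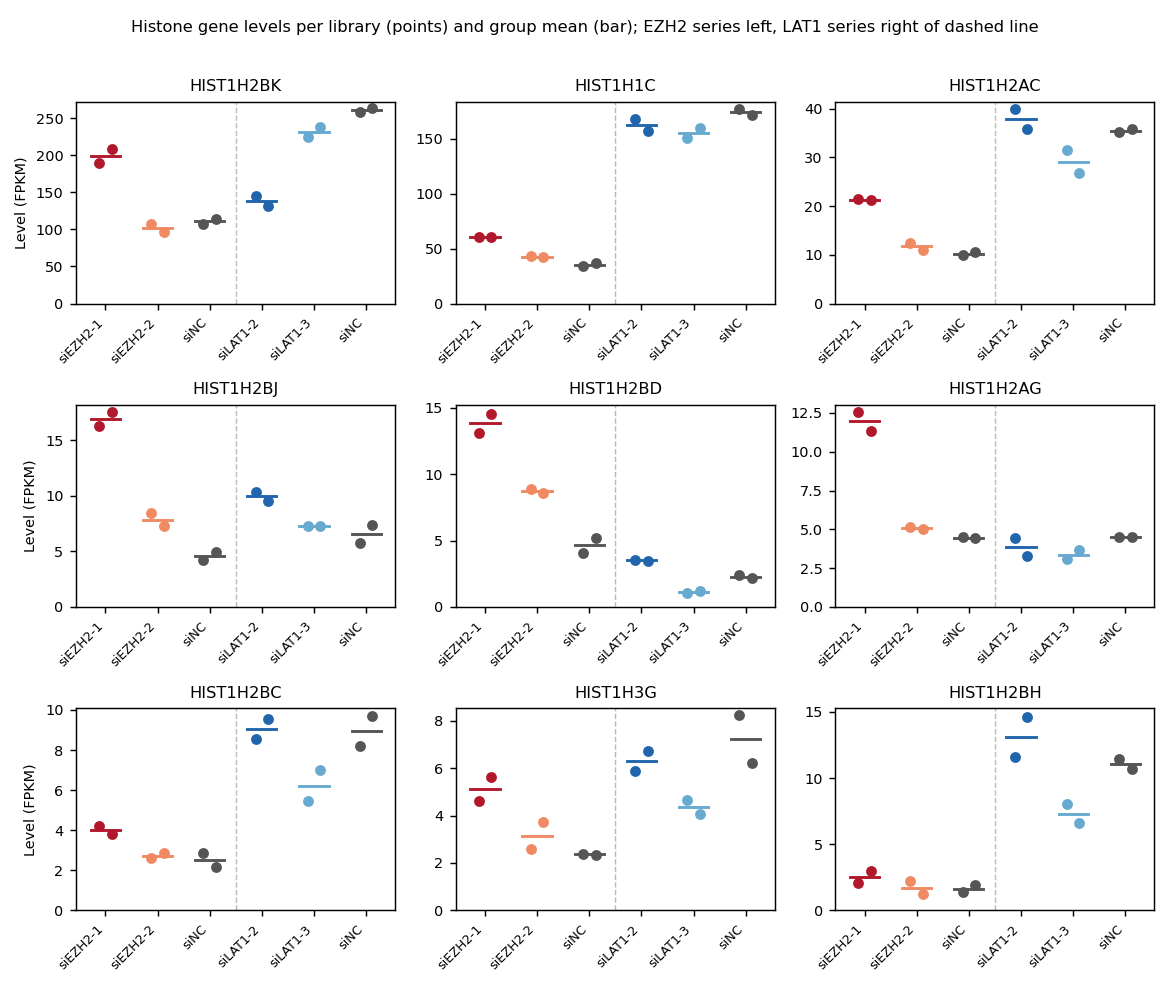
Level in FPKM (vertical axis, from 0) of 9 histone cluster genes in each library (points) and the mean of each group (bars), with the EZH2 series left and the LAT1 series right of the dashed line. In the EZH2 series the siEZH2-1 libraries of HIST1H2BK (189.9 and 208 FPKM) stand above those of siEZH2-2 and siNC, and in the LAT1 series the siLAT1-2 libraries (145 and 131 FPKM) stand below those of siLAT1-3 and siNC.

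The direct contrast of the EZH2 siRNAs asks where they differ. siEZH2-2 was lower than siEZH2-1 at 10 of 23 tested histone genes and higher at 0 (limma; 8.86% of all genes were lower and 7.40% higher, 16.3% in all; 13 and 0 members at an unadjusted p under 0.05). The members' median log2 difference was -0.48, and that of all genes was 0.00. HIST1H2AG stood at 5.17 and 5.04 FPKM with siEZH2-2, against 12.5 and 11.4 FPKM with siEZH2-1, a log2 difference of -1.08 ± 0.07 (SE; 95% interval -1.25 to -0.91; adjusted p = 0.000388). Its divergent neighbour HIST1H2BJ differed by -1.02 ± 0.10 (adjusted p = 0.00142), HIST1H2BK by -0.96 ± 0.08 (adjusted p = 0.00076) and HIST1H2AC by -0.81 ± 0.07 (adjusted p = 0.000882). HIST1H1C differed by -0.49 ± 0.06 (adjusted p = 0.00275), and these 5 calls stood in every alternative. HIST1H3H (-0.94 ± 0.15, adjusted p = 0.00954), HIST1H1PS1 (-0.83 ± 0.13, adjusted p = 0.0083), HIST1H2BD (-0.60 ± 0.10, adjusted p = 0.0124) and HIST1H3G (-0.57 ± 0.15, adjusted p = 0.0441) were also lower with siEZH2-2, but each call ended without siEZH2-1 replicate 2 (adjusted p 0.0503, 0.0542, 0.0786 and 0.209). The count without that library was 6. HIST1H4I, the remaining call (-0.48 ± 0.13, adjusted p = 0.047), ended in 9 of 11 alternatives. HIST1H2APS4 (-0.08, 95% interval -0.32 to 0.16) and HIST1H4A (0.22, interval -0.22 to 0.66) were not called.

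**Figure D2:**
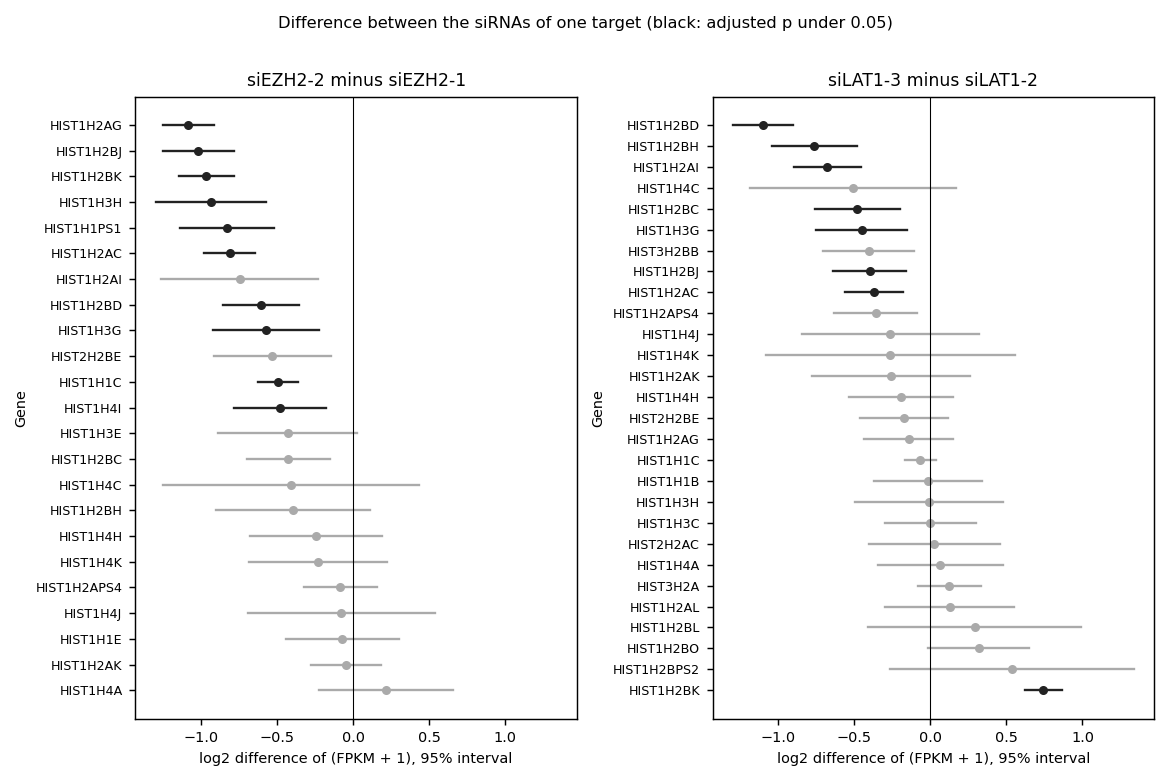
Difference between the siRNAs of 1 target for each tested histone gene, as log2 of (FPKM + 1) with its 95% interval (horizontal axis), siEZH2-2 minus siEZH2-1 at left and siLAT1-3 minus siLAT1-2 at right. Black genes had an adjusted p under 0.05 (limma). Of 23 tested, 10 were lower with siEZH2-2 (8.86% of all genes). Of 28 tested, 7 were lower with siLAT1-3 (13.1% of all genes) and 1, HIST1H2BK, was higher (12.4% of all genes).

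Summed over all members of a type, untested ones included, every type was above siNC with siEZH2-1. Summed H1 was 65.3 ± 1.1 FPKM with siEZH2-1 (SD, n = 2 libraries in each group), 45.5 ± 1.1 FPKM with siEZH2-2 and 38.0 ± 1.8 FPKM with siNC. Summed H2A was 44.5 ± 0.4 FPKM, 25.8 ± 1.3 FPKM and 22.0 ± 1.0 FPKM in the same groups, and summed H2B was 244 ± 15 FPKM, 128 ± 10 FPKM and 130 ± 6 FPKM. As ratios to siNC, siEZH2-1 gave 1.72 for H1, 2.03 for H2A, 1.88 for H2B, 1.87 for H3 and 1.37 for H4. siEZH2-2 gave 1.20, 1.17, 0.98, 1.12 and 1.09 for the same types. HIST1H2BK set the H2B sums: without it the H2B ratio was 2.41 with siEZH2-1 and 1.40 with siEZH2-2. The sums are given as a description and were not tested.

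**Figure D3:**
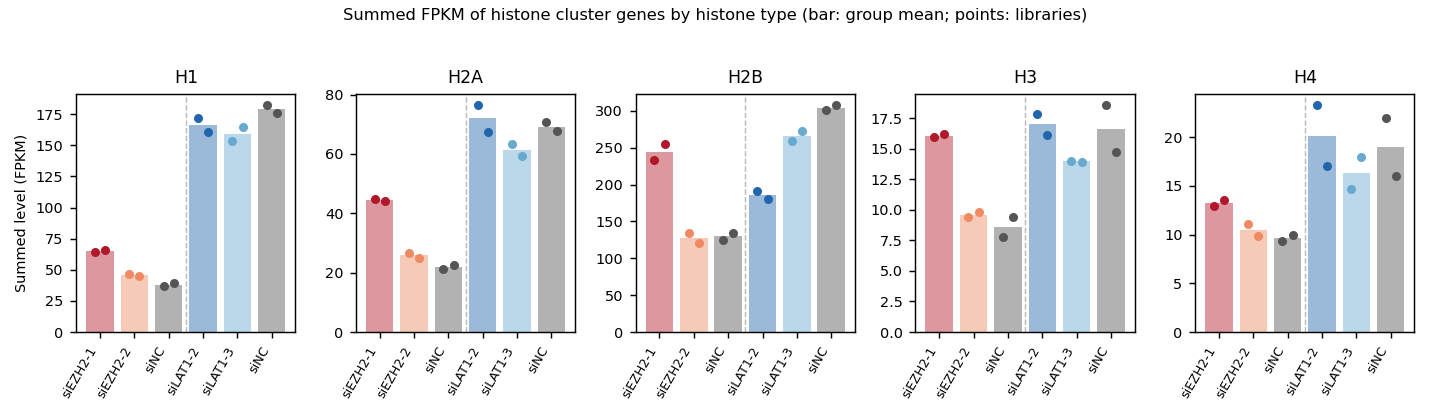
Summed FPKM of all histone cluster genes of each type (vertical axis, from 0), with bars for group means and points for libraries, EZH2 series left and LAT1 series right of the dashed line. siEZH2-1 lies above siEZH2-2 and siNC in every panel, and siLAT1-2 lies lowest of its series in H2B (191 and 181 FPKM, against 301 and 308 FPKM in siNC).

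In the LAT1 series histone genes were called in both directions relative to siNC. With both LAT1 siRNAs averaged, 2 of 28 tested members were higher and 4 lower (limma; 19.3% and 15.3% of all 11678 genes tested, 34.5% in all). With siLAT1-2, 3 were higher and 3 lower (18.6% and 13.9% of all genes, 32.5% in all), and with siLAT1-3, 1 was higher and 7 lower (17.9% and 13.6% of all genes, 31.4% in all). At an unadjusted p under 0.05 the counts were 2 higher and 9 lower for the average, 4 and 4 with siLAT1-2, and 1 and 14 with siLAT1-3, 6 of the 14 being H2A genes. These cannot be set against the shares above, which are at an adjusted p under 0.05. Under quantile normalization the siLAT1-3 split of calls was 0 higher and 8 lower. The members' median log2 difference was 0.01 with siLAT1-2 and -0.20 with siLAT1-3, with all genes at 0.02 in both contrasts. The siLAT1-2 median took either sign when 1 library was left out (-0.06 without siNC replicate 2, 0.07 without siLAT1-2 replicate 2 or siNC replicate 1), and that of siLAT1-3 was -0.31 without siNC replicate 2. HIST1H2BJ and HIST3H2A were higher with the siRNAs averaged, and HIST1H2BK, HIST1H1C, HIST1H2AL and HIST1H3G lower. Of these 6 calls, that of HIST1H2BK alone stood in every alternative. Those of HIST1H1C, HIST1H2AL and HIST3H2A each ended in 7 alternatives, for HIST1H1C and HIST1H2AL the replicate number as a block among them (adjusted p 0.0523 and 0.0596), that of HIST1H2BJ in 5 and that of HIST1H3G in 4. These siRNAs also share their siNC libraries. The averaged count was 3 without siLAT1-3 replicate 1 and 2 without siNC replicate 1. The siLAT1-2 count was 3 without siNC replicate 2, and the siLAT1-3 count was 4 without siLAT1-3 replicate 2 or siNC replicate 1 and 5 without siNC replicate 2.

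HIST1H2BK carried the clearest change. It had 145 and 131 FPKM with siLAT1-2, 225 and 239 FPKM with siLAT1-3 and 259 and 264 FPKM with siNC, so that the groups were ordered with no overlap. It fell by 0.92 ± 0.05 (SE, log2) with siLAT1-2 (adjusted p = 5.05e-05), a call kept in every alternative. With siLAT1-3 the difference was -0.18 ± 0.05 (adjusted p = 0.0409), and that call ended when any siLAT1-3 or siNC library was left out (adjusted p 0.0542 to 0.178). HIST1H2BD moved in opposite directions with the siRNAs: it had 3.53 and 3.50 FPKM with siLAT1-2, 1.03 and 1.18 FPKM with siLAT1-3 and 2.41 and 2.15 FPKM with siNC. The differences were 0.46 ± 0.08 (adjusted p = 0.00635) and -0.64 ± 0.08 (adjusted p = 0.00181), both kept in every alternative that could be fitted. HIST1H2BJ had 10.4 and 9.54 FPKM with siLAT1-2, 7.31 and 7.29 FPKM with siLAT1-3 and 5.73 and 7.36 FPKM with siNC, and rose with siLAT1-2 (0.55 ± 0.10, adjusted p = 0.00679). Other H2B genes were called with 1 siRNA each. HIST1H2BH fell with siLAT1-3 (-0.54 ± 0.12, adjusted p = 0.0139) on 8.01 and 6.58 FPKM, against 11.4 and 10.7 FPKM in siNC. HIST1H2BC fell with siLAT1-3 (-0.47 ± 0.12, adjusted p = 0.024) on 5.47 and 6.98 FPKM, against 8.21 and 9.70 FPKM in siNC. HIST1H2BO fell with siLAT1-2 (-0.45 ± 0.14, adjusted p = 0.0475) on 2.71 and 1.80 FPKM, against 3.47 and 3.34 FPKM in siNC. Of these 3, HIST1H2BH was not called without siLAT1-3 replicate 2 or either siNC library (adjusted p 0.0534 to 0.0852) and HIST1H2BC without siLAT1-3 replicate 1 (0.0963) or siNC replicate 2 (0.132). HIST1H2BO was not called when any library but siLAT1-2 replicate 1 was left out (0.0568 to 0.174).

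Of 8 H2A genes tested in the LAT1 series, each siRNA gave 1 higher and 1 lower. HIST1H2AI had 2.78 and 3.03 FPKM with siLAT1-2, 1.46 and 1.42 FPKM with siLAT1-3 and 2.03 and 1.68 FPKM with siNC, and rose with siLAT1-2 (0.45 ± 0.09, adjusted p = 0.0101). HIST1H2AL had 2.46 and 1.47 FPKM with siLAT1-2, 2.02 and 2.38 FPKM with siLAT1-3 and 2.93 and 3.89 FPKM with siNC, and fell with siLAT1-2 (-0.58 ± 0.18, adjusted p = 0.0447). Every library of these siRNAs lay below siNC for HIST1H2AL. HIST1H2AC fell with siLAT1-3 (-0.28 ± 0.08, adjusted p = 0.0372), on 31.4 and 26.7 FPKM, against 35.1 and 35.8 FPKM in siNC, and the siLAT1-2 libraries had 39.9 and 35.8 FPKM. HIST3H2A, an H2A gene of the HIST3 cluster, rose with siLAT1-3 (0.30 ± 0.09, adjusted p = 0.0365) on 17.8 and 18.9 FPKM, against 16.1 and 13.3 FPKM in siNC. All 4 of these calls depended on single libraries. HIST1H2AI was not called without siLAT1-2 replicate 2 (adjusted p = 0.0599) or siNC replicate 2 (0.061), HIST1H2AL when any library but siLAT1-2 replicate 1 was left out (0.0627 to 0.218), HIST1H2AC without siLAT1-3 replicate 2 (0.132) or either siNC library (0.124 and 0.148), and HIST3H2A without either siLAT1-3 library (0.0787 and 0.149) or siNC replicate 2 (0.134).

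HIST1H1C, at 167 and 157 FPKM with siLAT1-2, 150.2 and 159.9 FPKM with siLAT1-3 and 176 and 171 FPKM with siNC, fell with siLAT1-3 by a small margin (-0.17 ± 0.04, adjusted p = 0.029). The siLAT1-3 libraries lay below siNC and overlapped those of siLAT1-2, and the call ended without siLAT1-3 replicate 1 (adjusted p = 0.132), siNC replicate 1 (0.149) or siNC replicate 2 (0.0835). HIST1H1B, another linker histone gene, had 2.58 and 2.52 FPKM with siLAT1-2, 1.96 and 3.16 FPKM with siLAT1-3 and 3.50 and 3.48 FPKM with siNC, and was not called. HIST1H3G had 5.88 and 6.73 FPKM with siLAT1-2, 4.64 and 4.05 FPKM with siLAT1-3 and 8.23 and 6.20 FPKM with siNC, and fell with siLAT1-3 (-0.61 ± 0.13, adjusted p = 0.0113), a call that ended without siLAT1-3 replicate 2 (0.0635). HIST1H3H and HIST1H3C were not called, and neither was any of the 5 H4 genes in the contrasts with siNC (limma; 0 at an unadjusted p under 0.05). Of all genes, 32.5% were called with siLAT1-2 and 31.4% with siLAT1-3.

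**Figure D4:**
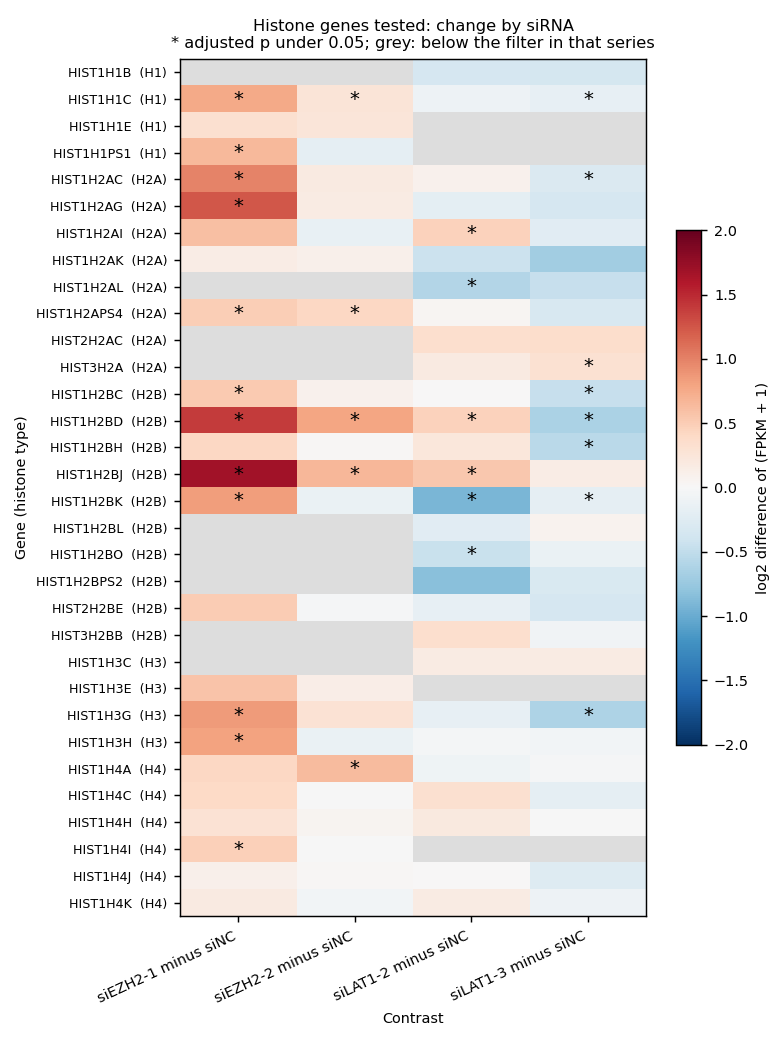
Log2 difference of (FPKM + 1) from siNC (colour) of the 32 histone genes tested in either series, ordered by histone type, for each siRNA. Asterisks mark an adjusted p under 0.05 (limma) and grey marks a gene below the filter in that series. With siEZH2-1, 12 of 23 tested genes were called (52.2%, all genes 27.2%) and with siEZH2-2 5 of 23 (21.7%, all genes 24.8%), all higher. With siLAT1-2, 6 of 28 were called (21.4%, all genes 32.5%) and with siLAT1-3 8 of 28 (28.6%, all genes 31.4%), in mixed directions.

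Set directly against siLAT1-2, siLAT1-3 was lower at 7 of 28 tested histone genes and higher at 1 (limma; 13.1% of all genes were lower and 12.4% higher, 25.5% in all; 9 lower and 1 higher at an unadjusted p under 0.05), with a median of -0.18 (all genes 0.00). This median depended on single libraries: it was -0.07 without siLAT1-2 replicate 1, -0.06 without siLAT1-3 replicate 1 and -0.33 without siLAT1-2 replicate 2. HIST1H2BK was the 1 that was higher, by 0.74 ± 0.05 (SE, log2; 225 and 239 FPKM with siLAT1-3, against 145 and 131 FPKM with siLAT1-2; adjusted p = 0.000152). HIST1H2BD was lower by the most, at -1.10 ± 0.08 (95% interval -1.30 to -0.90; adjusted p = 0.000209), and HIST1H2AI was lower by -0.68 ± 0.09 (adjusted p = 0.00259); these 3 calls stood in every alternative. HIST1H2BH differed by -0.76 ± 0.12 (8.01 and 6.58 FPKM with siLAT1-3, against 11.6 and 14.6 FPKM with siLAT1-2; adjusted p = 0.00442). HIST1H2BC (-0.48 ± 0.12), HIST1H3G (-0.45 ± 0.13), HIST1H2BJ (-0.40 ± 0.10) and HIST1H2AC (-0.37 ± 0.08) were also lower with siLAT1-3, at adjusted p 0.0163 to 0.0403. Each of these last 4 calls ended without 1 or more of the siRNA libraries (adjusted p up to 0.170), siLAT1-2 replicate 1 among them for all 4. The count was 5 without siLAT1-2 replicate 1 or without siLAT1-3 replicate 2. Summed H2B was 266 ± 10 FPKM with siLAT1-3 (SD, n = 2 libraries in each group), 186 ± 7 FPKM with siLAT1-2 and 304 ± 4 FPKM with siNC. Without HIST1H2BK the order of the siRNAs turned round, with H2B ratios to siNC of 0.80 for siLAT1-3 and 1.11 for siLAT1-2. Over all members, siLAT1-3 gave ratios of 0.89 for H1, 0.89 for H2A, 0.87 for H2B, 0.84 for H3 and 0.86 for H4. Those of siLAT1-2 were 0.93, 1.04, 0.61, 1.02 and 1.06 for the same types. The H4 ratios had an SD of 0.23 (siLAT1-3) and 0.33 (siLAT1-2), and the sums were not tested.

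Some members were listed at 0 throughout 1 table and above 0 in the other: 45 IDs were at 0 in all 6 libraries of the EZH2 series and 35 in all 6 of the LAT1 series, 34 of them in both. HIST3H2A, HIST3H2BB and HIST1H3C were listed at 0 in all 6 libraries of the EZH2 series, while in the LAT1 series libraries HIST3H2A had 13.3 to 18.9 FPKM, HIST3H2BB 0.99 to 1.87 FPKM and HIST1H3C 1.13 to 1.69 FPKM. Over all genes, 9 were listed at 0 in every EZH2 series library and at 10 FPKM or more in every LAT1 series library, among them the ubiquitin gene UBB (56.7 to 69.4 FPKM), and 0 the other way round. UBB is used by every cell, so these zeros are not read as absence of the RNA, and levels of these members are not compared between the tables, which were scaled separately. For the same reason the higher HIST1H1C level in the LAT1 series siNC (176 and 171 FPKM) than in the EZH2 series siNC (33.8 and 36.6 FPKM) was not tested.

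The members below the filter had at most 1.69 FPKM in any library of the EZH2 series, and for the LAT1 series this was 1.70 FPKM. The highest of those tested in neither series were HIST1H2AJ (0 to 1.70 FPKM), HIST1H3B (0.49 to 1.69 FPKM) and HIST1H3A (0 to 1.47 FPKM). In the EZH2 series 11 members averaged between 0.5 and 1 FPKM, namely HIST2H2BC, HIST1H3B, HIST1H2AE, HIST1H2BN, HIST1H4E, HIST2H2BD, HIST2H2AA3, HIST1H3D, HIST1H2AH, HIST1H2BO and HIST1H2BL. In the LAT1 series 11 did, namely HIST1H2AJ, HIST1H1E, HIST1H3B, HIST2H2AA3, HIST1H3A, HIST2H2BC, HIST1H2BN, HIST1H3J, HIST1H3D, HIST1H3E and HIST1H2BI. Just above it stood HIST1H4K (1.11 FPKM) and HIST1H4H (1.27 FPKM) (EZH2 series), and HIST1H4A (1.02 FPKM) and HIST1H2AK (1.25 FPKM) in the LAT1 series. For HIST1H3B an estimated 6 to 17 reads per library lay behind the EZH2 series values and 3 to 9 behind those of the LAT1 series.

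Genes for histone gene transcription and processing, cell cycle genes, other histones and chaperones are given for context. Beside them stand the shares of all genes tested that were called. These were 15.9% higher and 11.4% lower with siEZH2-1, and 13.9% and 10.9% with siEZH2-2. They were 18.6% and 13.9% with siLAT1-2, and 17.9% and 13.6% with siLAT1-3. Of 17 genes for histone gene transcription and mRNA 3′ end processing, 2 were higher and 3 lower with siEZH2-1, 2 higher and 3 lower with siEZH2-2, 3 higher and 2 lower with siLAT1-2, and 4 higher and 1 lower with siLAT1-3. CASP8AP2, which encodes the processing factor FLASH, had 3.03 and 2.65 FPKM with siEZH2-1, 4.68 and 6.25 FPKM with siEZH2-2 and 5.85 and 4.46 FPKM with siNC. It was lower with siEZH2-1 than with siNC (-0.67 ± 0.15, adjusted p = 0.0215). SLBP, the stem-loop binding protein, was higher with siEZH2-2 than with siEZH2-1 by 0.22 ± 0.05 (49.99 and 52.1 FPKM, against 43.5 and 43.8 FPKM; adjusted p = 0.029). NPAT, the activator of the clusters, was lower with siLAT1-3 than with siNC (5.08 and 4.97 FPKM, against 6.02 and 7.18 FPKM; -0.33 ± 0.08, adjusted p = 0.0181). Of 12 G1/S and S phase genes, 7 were higher and 0 lower with siEZH2-1, 5 and 0 with siEZH2-2, 4 and 1 with siLAT1-2, and 6 and 0 with siLAT1-3. Beside these stand the histone calls given above, 12 higher and 0 lower with siEZH2-1, 5 and 0 with siEZH2-2, 3 and 3 with siLAT1-2, and 1 and 7 with siLAT1-3. E2F1, a transcription factor of the G1/S transition, rose with siEZH2-1 (0.71 ± 0.08, adjusted p = 0.00209), siEZH2-2 (0.48 ± 0.08, adjusted p = 0.00875), siLAT1-2 (0.43 ± 0.05, adjusted p = 0.00118) and siLAT1-3 (0.45 ± 0.05, adjusted p = 0.00106). The median log2 difference of the 12 was 0.235 with siEZH2-1, 0.257 with siEZH2-2, 0.114 with siLAT1-2 and 0.093 with siLAT1-3. For siEZH2-2 minus siEZH2-1 it was 0.024, with 0 called higher and 2 lower (7.40% and 8.86% of all genes). Of 16 replacement and other histones outside the clusters, 11 were tested in the EZH2 series, and 4 were higher and 1 lower with each EZH2 siRNA. H2AFJ, an H2A variant gene, rose with siEZH2-1 (7.19 and 7.56 FPKM, against 4.24 and 4.84 FPKM in siNC; 0.60 ± 0.09, adjusted p = 0.00547). Of 10 tested in the LAT1 series, 1 was higher and 1 lower with siLAT1-2 and 2 were higher and 3 lower with siLAT1-3. H1F0, the replacement linker histone, fell with siLAT1-2 (53.99 and 51.4 FPKM, against 73.1 and 69.7 FPKM in siNC; -0.43 ± 0.04, adjusted p = 0.000373), as HIST1H2BK did. Of 20 histone chaperone genes tested, 5 were higher and 2 lower with siEZH2-1 and 6 higher and 1 lower with siEZH2-2, and 6 and 0 with siLAT1-2 and 9 and 2 with siLAT1-3. The part of these genes in the histone levels was not tested.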

How the data were processed

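RNA-seq of KYSE510 cells gave 12 libraries in 2 series of 3 groups with 2 libraries each. The authors deposited FPKM values to 2 decimals in 1 table per series, which were read as they stand. Per the submitters' processing notes, the tools were Trim Galore, STAR, Bowtie, Bowtie2, Picard and SEACR, on hg19 and hg38, with no role given for each. This list was pooled over all 14 samples of the study, the 2 CUT&Tag samples included, and was not split by assay. The counting program, gene lengths, strand setting and treatment of reads that match several genes are not given in the sources used here. Both siNC libraries of the LAT1 series carry 1 number in their titles, so the numbers in their descriptions were used.

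Each table was fitted alone with limma 3.58.1 in R 4.3.3 (limma-trend) on log2(FPKM + 1), over all genes averaging 1 FPKM or more in its 6 libraries, with 1 group per siRNA and siNC. Fold changes on this scale understate the change of low genes. Each siRNA was set against siNC, the average of both siRNAs against siNC, and the siRNAs against each other. A call is a two-sided adjusted p (Benjamini-Hochberg over all genes tested) under 0.05. With 4 libraries against 2 the smallest exact permutation p is 0.0667, and with 2 against 2 it is 0.333. Calls therefore rest on the spread pooled across genes. The labels do not say whether the libraries of 1 group are separate cultures; p-values then reflect library-to-library spread, possibly technical.

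Depth was estimated from low FPKM values, which rise in steps of 1 read: 68.4% to 84.0% of the values used were whole within 0.12 reads. Reads per gene are therefore estimates, given only where a gene's own values fall on such steps. The 106 IDs were matched to current symbols for 101. Promoters came from RefSeq (GRCh38.p14). The procedure was tested on simulated data. Fits were repeated with quantile normalization, with a pseudocount of 0.1, with the filter removed or raised to 5 FPKM, with replicate number as a block, and without each library. Values are named for members with a mean of at least 1 FPKM in either table, and for at most 3 called genes per context list. The members and lists were chosen with earlier results of these data known. Tables and figures were made with Python 3.11.15, pandas 2.3.3 and matplotlib 3.10.9.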

Additional observations from a re-analysis of the deposited data

Results flagged for a closer look

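The siRNAs of 1 target differed at 18 of the histone gene comparisons tested with limma at an adjusted p under 0.05. For the EZH2 siRNAs these were 10 of 23 tested members (43.5%), where 16.3% of all genes were called. For the LAT1 siRNAs they were 8 of 28 (28.6%), near the 25.5% of all genes. The differences are listed because siRNAs against the same target were compared directly. As log2 of (FPKM + 1), siEZH2-2 minus siEZH2-1 was -1.08 for HIST1H2AG, -1.02 for HIST1H2BJ, -0.96 for HIST1H2BK, -0.94 for HIST1H3H and -0.83 for HIST1H1PS1. It was -0.81 for HIST1H2AC, -0.60 for HIST1H2BD, -0.57 for HIST1H3G, -0.49 for HIST1H1C and -0.48 for HIST1H4I. All 10 were lower with siEZH2-2. EZH2 itself stood at 36.4% of siNC with siEZH2-2 and 40.6% with siEZH2-1, and SLC7A5 at 78.6% with siEZH2-2 and 24.9% with siEZH2-1; the part of either in these differences was not tested.

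siLAT1-3 minus siLAT1-2 was -1.10 for HIST1H2BD, -0.76 for HIST1H2BH, -0.68 for HIST1H2AI and -0.48 for HIST1H2BC. It was -0.45 for HIST1H3G, -0.40 for HIST1H2BJ, -0.37 for HIST1H2AC and 0.74 for HIST1H2BK. SLC7A5 stood at 26.0% of siNC with siLAT1-3 and 20.3% with siLAT1-2. HIST1H2BJ, HIST1H2BD, HIST1H2AC, HIST1H2BK and HIST1H3G were called between the siRNAs of both targets. The share of all genes called in both of these contrasts was not computed. HIST1H2BK was lower with siEZH2-2 than with siEZH2-1 (-0.96) but higher with siLAT1-3 than with siLAT1-2 (0.74). The LAT1 series calls of HIST1H2BJ, HIST1H2AC and HIST1H3G did not stand in every alternative.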

How the results depend on the processing

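No member call changed sign in any alternative. Of 64 calls of a member in a contrast, 25 were kept in every alternative that could be fitted, the crossed block below aside, and 27 in every leave-one-out fit. Without a filter, which lets in many genes of few reads, 39 calls ended. The numbers of members called then were 7 for siEZH2-1 minus siNC, 2 for siEZH2-2, 5 for siEZH2-2 minus siEZH2-1, 2 for the mean of the LAT1 siRNAs, 3 for siLAT1-2, 2 for siLAT1-3 and 3 for siLAT1-3 minus siLAT1-2. With the filter at 5 FPKM, which keeps 6 members (EZH2 series) and 9 (LAT1 series), they were 6 for siEZH2-1, 3 for siEZH2-2, 6 for siEZH2-2 minus siEZH2-1 and 2 for siLAT1-2. Under quantile normalization siEZH2-2 had 3; the cause was not tested. Leaving out 1 library at a time gave 6 to 9 called for the mean of the EZH2 siRNAs, 7 to 14 for siEZH2-1, 2 to 5 for siEZH2-2 and 6 to 11 for siEZH2-2 minus siEZH2-1. In the LAT1 series it gave 2 to 5 for the mean of both siRNAs, 3 to 7 for siLAT1-2, 4 to 10 for siLAT1-3 and 5 to 9 for siLAT1-3 minus siLAT1-2. Medians over the tested members moved too. Leaving out 1 library at a time, they ran from 0.43 to 0.57 for siEZH2-1, 0.09 to 0.18 for siEZH2-2, -0.63 to -0.46 for siEZH2-2 minus siEZH2-1, -0.06 to 0.07 for siLAT1-2, -0.31 to -0.14 for siLAT1-3 and -0.33 to -0.06 for siLAT1-3 minus siLAT1-2. With no filter the last was -0.01. Where a group is left with 1 library, that library is assumed to vary like the others.

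The replicate numbers did not establish pairs: replicate differences of the groups correlated across genes at -0.353, 0.355 and -0.339 for the EZH2 series, and at 0.018, 0.033 and 0.083 for the LAT1 series. With the replicate number as a block, 8, 12, 4 and 9 members were called in the EZH2 series (mean of both, siEZH2-1, siEZH2-2, siEZH2-2 minus siEZH2-1) and 6, 5, 8 and 9 in the matching LAT1 contrasts. A crossed replicate block with the siEZH2-2 numbers swapped, chosen after seeing the data, called 13, 17, 8 and 14 in the EZH2 series, the 8 for siEZH2-2 being 7 higher and 1 lower (HIST1H2BK).

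Depth limits the genes near 1 FPKM, which rest on few reads, and shared sequence between copies leaves single-gene values uncertain.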
